A study of Rattus norvegicus with 6 samples.

Results

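The unfolded protein response and endoplasmic reticulum (ER) stress genes were followed in the testes of diabetic and non-diabetic rats. They are 35 genes chosen by symbol for their known function, out of 35291 genes in the table, and each of the 35 symbols was found once. They fall into 4 stress sensors, 6 transcription factors and stress effectors, 15 ER chaperones and folding enzymes, and 10 genes of ER-associated degradation.

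The RNA-Seq values came from the testes of 3 diabetic (DM) and 3 non-diabetic (ND) rats, all Sprague-Dawley, an outbred strain. The DM rats were kept on a high-fat diet and then received streptozotocin (STZ), which destroys pancreatic beta cells, as a single intraperitoneal dose of 35 mg/kg, while the ND rats, called Normal in the labels, received citrate buffer alone. Testes were taken 8 weeks after the injection, and whether the ND rats had the high-fat diet is not clear from the methods, so diet and STZ cannot be told apart here. Nothing in the labels describes the animals further, so the p-values measure the spread between these 6 samples.

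Proteins that enter the secretory pathway fold in the ER, and unfolded proteins there activate the sensors IRE1α (Ern1), PERK (Eif2ak3) and ATF6. IRE1α splices the mRNA of Xbp1, PERK phosphorylates the translation factor eIF2α and so favours ATF4 and CHOP (Ddit3), and ATF6 is cut in the Golgi to release a transcription factor. These factors raise chaperones, folding enzymes and the machinery that returns misfolded proteins to the cytosol for degradation. In the testis the pathway is known from germ cells, which make the secretory content of the acrosome, and from the steroid-producing Leydig cells with their extensive smooth ER. The values used here are per gene, and they show neither the splicing of Xbp1 nor the phosphorylation or cleavage of the sensors.

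Many target genes of the response carry an ER stress response element (ERSE), whose letters are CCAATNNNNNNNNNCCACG, and its matches are shown because they join the members that ATF6 and XBP1 are known to act on. Promoters came from RefSeq (GRCr8) and span 250 bases before to 50 bases after each gene's start. They were found for 28 of the 35 members, and not for Atf6, Derl1, Ern1, Manf, Os9, Pdia3 and Pdia6. On either strand, the element was present in the promoters of 8 members, or 28.6% of the 28, and of 21 of all 27457 genes with a promoter, or 0.0765% (21 of 33469 promoters, or 0.0627%). The members were chosen as known genes of this response and are counted among all genes, so these shares and those below are not a test. Each sequence is written 5′ to 3′ on the strand of the element, capitals mark CCAAT and CCACG, and the number of bases between the element and the gene's start is given with the position.
Hspa5 (chr3:38452968-38452996, plus strand, 24 bases): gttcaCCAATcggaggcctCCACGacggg
Xbp1 (chr14:84604553-84604581, plus strand, 46 bases): acaggCCAATcgcagacggCCACGaccct
Hsp90b1 (chr7:23012342-23012370, plus strand, 53 bases): acccaCCAATcgtgcctcaCCACGcactc
Hsp90b1 (chr7:23012446-23012474, minus strand, 157 bases): caaacCCAATcgaaaggagCCACGcttcg
Dnajc3 (chr15:102432529-102432557, plus strand, 114 bases): caaagCCAATcagcgccaaCCACGaccca
Creld2 (chr7:121789234-121789262, minus strand, 126 bases): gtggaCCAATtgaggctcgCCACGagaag
Derl3 (chr20:12766596-12766624, plus strand, 135 bases): gctagCCAATaaggaagtcCCACGgtaga
Canx (chr10:35158064-35158092, minus strand, 211 bases): cttgtCCAATcatcacgctCCACGaagaa
Calr (chr19:40213130-40213158, minus strand, 213 bases): ctgggCCAATcagggtcgaCCACGcgttg

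A shorter form of the element (ERSE-II), ATTGGNCCACG, was present in the promoters of 3 members, Herpud1, Hyou1 and Dnajb11, and of 17 of all 27457 genes, or 0.0619%. That of Herpud1, a gene whose product recruits the degradation machinery, is shown with both parts of the element in capitals, with 113 bases between it and the start.
Herpud1 (chr19:10614816-10614836, minus strand, 113 bases): cgctgATTGGgCCACGttggg
The UPR element TGACGTGG was found for Hyou1 and Vcp, and for 0.681% of all genes, and in Hyou1 it overlaps one of 2 ERSE-II matches. These matches describe letters in a window, and a promoter without one says nothing about the factor.

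Levels are in FPKM (fragments per kilobase, scaled to the library), a unit that divides by transcript length and library size and so allows genes to be compared. The total FPKM lay between 461428 and 464969 in DM and between 453304 and 478211 in ND. Depth in reads is unknown. Relative depth, read from the step between low values, was 0.966 to 1.09 in DM and 0.893 to 1.02 in ND against a mean of 1, with ND3 the lowest. The comparison of DM with ND used limma on log2(FPKM + 0.1), two-sided, for 20338 genes whose mean over the 6 rats reached 0.5 FPKM. Log2 fold changes (DM minus ND) are given on this scale, on which changes of low genes come out too small. For 3 rats a group, 0.1 is the smallest p-value of the two-sided exact permutation test.

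Of the 35 members, 34 passed the filter on low values, and Trib3 did not. They were mostly well-expressed genes, with a median of 26.6 FPKM against 4.60 FPKM over all genes tested. No member passed the criterion of a 1-unit log2 fold change in either direction together with a limma p-value below 0.05 before adjustment, which 253 genes, or 1.24% of those tested, passed. None had an adjusted p-value below 0.05 (limma with Benjamini-Hochberg adjustment), where 7 genes, or 0.0344%, had one, and the lowest adjusted p-value among the members was 0.644 (limma). An unadjusted p-value below 0.05 from limma was given to 1 of the 34 members in the lower direction, Xbp1, against 4.99% of all genes tested, and to 0 in the higher direction, against 2.47%. DM and ND values were fully separate for 4 members that were lower in DM (Ern1, Eif2ak3, Xbp1 and Calr), against 8.42% of all genes, and for 1 that was higher (Ddit3), against 4.56%.

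The log2 fold changes of the 34 members ranged from -0.48 to 0.21, with 19 below and 15 above 0 (14 below and 20 above with median-ratio scaling). Their median was -0.0056, beside -0.021 over all genes tested, and the median absolute value was 0.067, beside 0.11 over all genes. An absolute log2 fold change below 0.2 was found for 30 of the 34 members and for 13911 of the 20338 genes. The 95% confidence interval from limma lay within -0.5 to 0.5 for 30 members, and for 10343 of all genes tested. The members are higher than most genes and their standard errors are smaller, with a median of 0.080 beside 0.15. The FPKM of all 35 members added up to 1753, 1749 and 1797 in the DM rats and to 1750, 1802 and 1785 in the ND rats. These sums are between 0.377% and 0.394% of each library's total FPKM, and the groups overlapped.

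**Figure D1:**
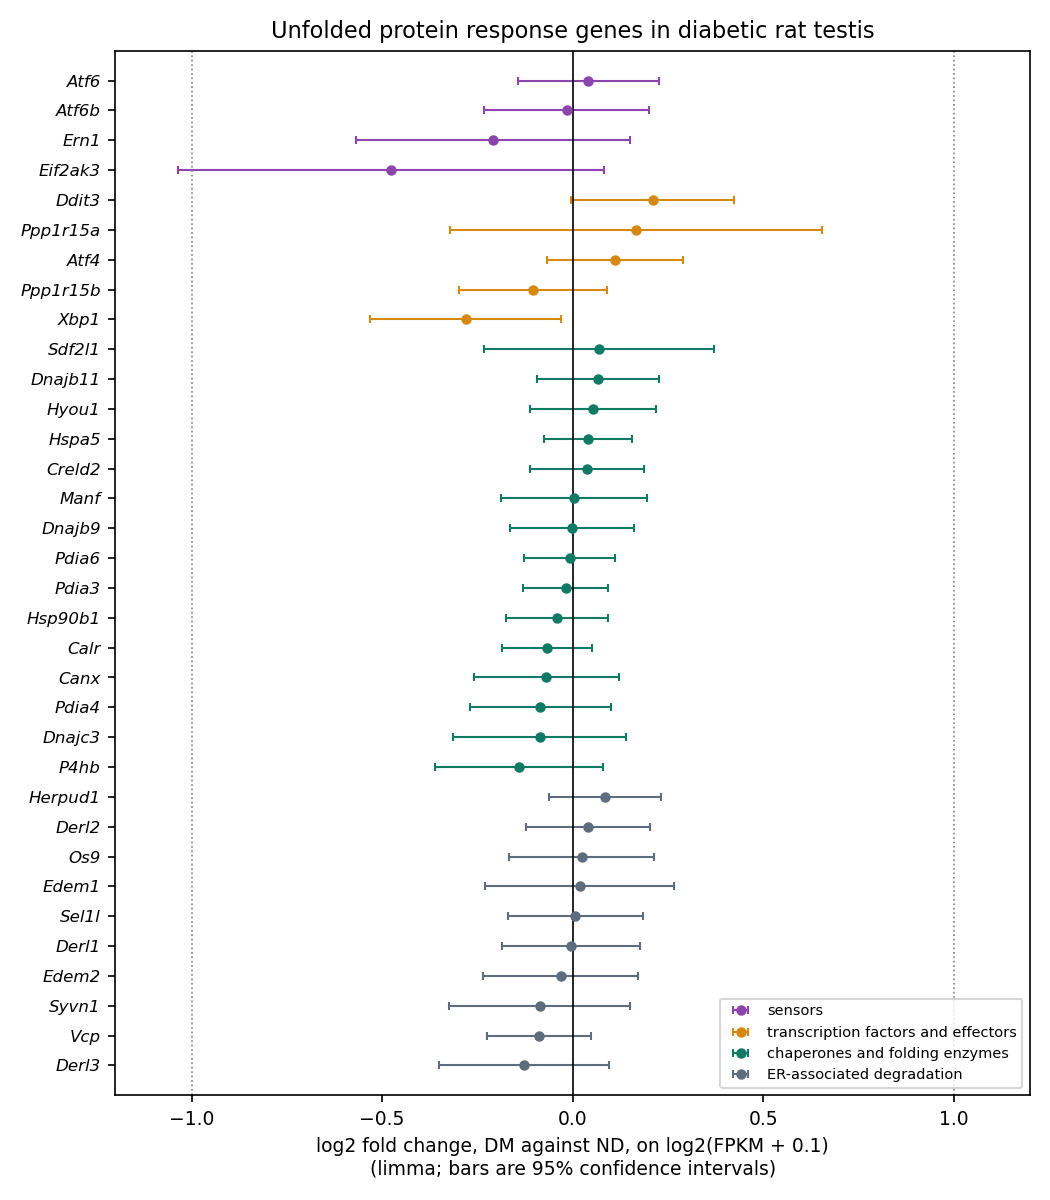
Log2 fold change (DM minus ND, on log2(FPKM + 0.1)) of the 34 members tested, grouped by role, with points for the estimate and lines for the 95% confidence interval from limma, and dotted lines at -1 and 1. All estimates lie between -0.48 and 0.21, and Xbp1 has the only interval that leaves out 0.

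The sensors differed more in level from each other than between the groups. In the order of replicates 1 to 3, used throughout, Atf6, the sensor that becomes a transcription factor, was listed at 10.9, 11.4 and 11.6 FPKM in DM and at 11.5, 10.3 and 11.2 FPKM in ND. Its paralog Atf6b stood at 7.30, 7.95 and 7.56 FPKM in DM and at 7.76, 8.24 and 7.10 FPKM in ND. For both genes the groups overlapped, with log2 fold changes of 0.041 (95% confidence interval -0.14 to 0.23) and -0.016 (-0.23 to 0.20). Within each rat there was 1.25 to 1.57 times as much Atf6 as Atf6b.

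Eif2ak3, which encodes PERK (ENSRNOG00000006069), was the lowest sensor, at 0.730, 0.635 and 0.710 FPKM in DM and 0.831, 1.03 and 1.16 FPKM in ND. Each DM rat was below each ND rat, and the mean was 0.691 ± 0.0502 FPKM in DM against 1.01 ± 0.168 FPKM in ND (SD, n = 3 each), a percent change of -31.4%. The log2 fold change of -0.48 (SE 0.24, 95% confidence interval -1.04 to 0.084) is the lowest of the members, but did not pass the test (adjusted p = 0.736, limma with Benjamini-Hochberg adjustment). The exact permutation test gave 0.1, its smallest value. The unadjusted p-value from limma was 0.0844, and it was 0.0135 without the mean-variance trend and 0.0387 among protein-coding genes only, but 0.138 with the replicate block and 0.217 without ND3, where the log2 fold change was -0.38. With a pseudocount of 1 the log2 fold change was -0.24.

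Ern1, which encodes IRE1α (ENSRNOG00000012864), stood at 1.50, 1.54 and 1.58 FPKM in the DM rats and at 1.67, 1.79 and 1.94 FPKM in the ND rats. The groups did not overlap here either. The mean was 1.54 ± 0.0408 FPKM in DM and 1.80 ± 0.136 FPKM in ND (SD, n = 3 each), and the log2 fold change of -0.21 had a 95% confidence interval of -0.57 to 0.15 (adjusted p = 0.843, limma with Benjamini-Hochberg adjustment). Of the 4 sensors, 0 passed the test at an unadjusted p-value below 0.05 in limma, and the sum of the sensors was 20.4, 21.5 and 21.5 FPKM in DM and 21.8, 21.4 and 21.4 FPKM in ND. That sum is mostly Atf6 and Atf6b, the more abundant sensors.

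**Figure D2:**
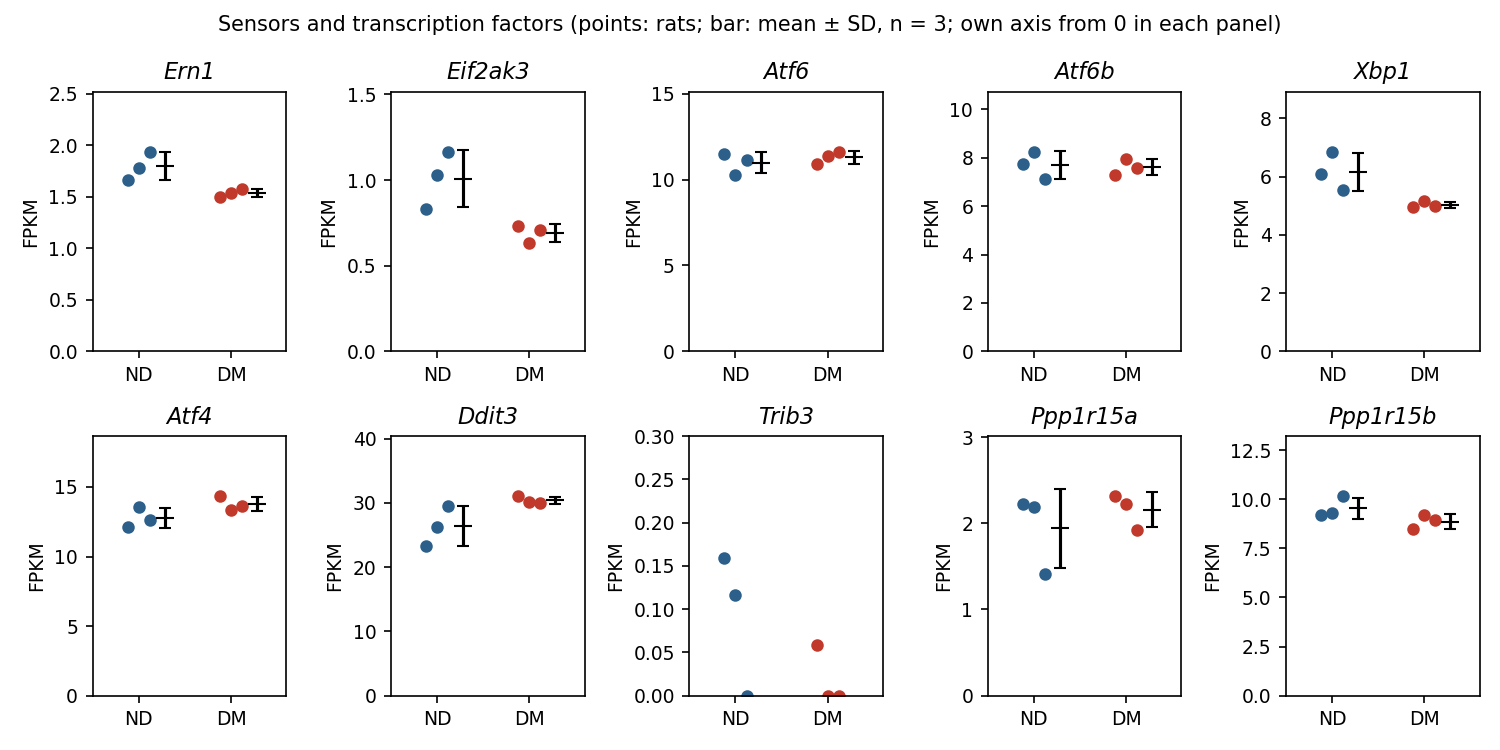
FPKM of the 4 sensors and the 6 transcription factors and effectors in each rat, with an axis from 0 in each panel, blue (ND) and red (DM) points for rats and bars for the mean and SD of each group of 3 (no bar for Trib3). The DM points are below all ND points for Ern1, Eif2ak3 and Xbp1 and above them for Ddit3, and they overlap for the other genes.

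Of the transcription factors and effectors, Xbp1 (ENSRNOG00000010298), which acts downstream of IRE1α and carries an ERSE, was listed at 4.95, 5.15 and 4.99 FPKM in DM and at 6.07, 6.85 and 5.55 FPKM in ND. The 3 DM rats were close together and below all ND rats, with a mean of 5.03 ± 0.105 FPKM in DM and 6.16 ± 0.655 FPKM in ND (SD, n = 3 each), a percent change of -18.3%. The log2 fold change was -0.28 (SE 0.11, 95% confidence interval -0.53 to -0.030). The unadjusted p-value from limma was 0.0331, but the adjusted p-value was 0.644 (limma with Benjamini-Hochberg adjustment), and the exact permutation test gave 0.1, its smallest value. In fits that left out 1 rat, the unadjusted p-value from limma stayed below 0.05 only without ND3 (0.0171) and was 0.0588 to 0.116 without any other rat, at log2 fold changes between -0.35 and -0.20.

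Ddit3 (ENSRNOG00000006789), which encodes CHOP, a factor associated with cell death under prolonged stress, stood at 31.1, 30.2 and 30.1 FPKM in DM and at 23.4, 26.3 and 29.5 FPKM in ND. It was the member whose DM rats were all above the ND rats, although ND3 was near them. The mean was 30.4 ± 0.562 FPKM in DM and 26.4 ± 3.06 FPKM in ND (SD, n = 3 each), and the log2 fold change was 0.21 (SE 0.091, 95% confidence interval -0.0031 to 0.42). It did not pass the test (unadjusted p = 0.0526 and adjusted p = 0.671 from limma with Benjamini-Hochberg adjustment), and the exact permutation test gave 0.1. It passed an unadjusted 0.05 in limma with median-ratio scaling (0.0398), among protein-coding genes only (0.0415) and without ND3 (0.00906). Without ND1 the log2 fold change was 0.13 (unadjusted p = 0.162, limma), and without the mean-variance trend the unadjusted p-value from limma was 0.0983.

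Atf4, whose product drives amino acid and redox genes after PERK signalling, was listed at 14.3, 13.4 and 13.6 FPKM in DM and at 12.1, 13.5 and 12.6 FPKM in ND. The groups overlapped, and the log2 fold change of 0.11 had a 95% confidence interval of -0.068 to 0.29. That overlap depended on the scaling, since with TPM or median-ratio scaling each DM rat was above each ND rat. The unadjusted p-values from limma were 0.172 and 0.116 there. Within each rat Ddit3 was 1.93 to 2.34 times as high as Atf4. Trib3, a pseudokinase gene induced by ATF4 and CHOP, was at the bottom of the table, at 0.0587 FPKM in DM1, 0.160 in ND1 and 0.116 in ND2, and was listed at 0 in DM2, DM3 and ND3. It was not tested.

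The regulatory subunits that guide a phosphatase to eIF2α differed in level. Ppp1r15a, the stress-inducible subunit GADD34, stood at 2.32, 2.23 and 1.93 FPKM in DM and at 2.22, 2.19 and 1.42 FPKM in ND. Ppp1r15b, the constitutive subunit, stood at 8.47, 9.19 and 8.92 FPKM in DM and at 9.18, 9.28 and 10.2 FPKM in ND. The groups overlapped for both, with log2 fold changes of 0.17 (95% confidence interval -0.32 to 0.66) and -0.11 (-0.30 to 0.089). The value of Ppp1r15a rested on ND3, without which it was -0.035. Ppp1r15b was 3.66 to 7.18 times as high as Ppp1r15a within a rat.

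The 6 transcription factors and effectors together summed to 61.2, 60.1 and 59.5 FPKM in DM and to 53.1, 58.3 and 59.2 FPKM in ND, so that each DM sum was above each ND sum. As a share of the library's total FPKM they overlapped, at 0.0132%, 0.0130% and 0.0129% in DM and 0.0116%, 0.0122% and 0.0131% in ND. Ddit3 was the largest part of each sum. Of the 5 that were tested, 1 had an unadjusted p-value below 0.05 in limma. Their median log2 fold change was 0.11, the value of Atf4, but it was -0.035 without ND3. With no filter, where Trib3 was included, it was 0.0027. Bulk testis was measured, in which fewer cells of a type and less RNA per cell cannot be told apart.

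**Figure D3:**
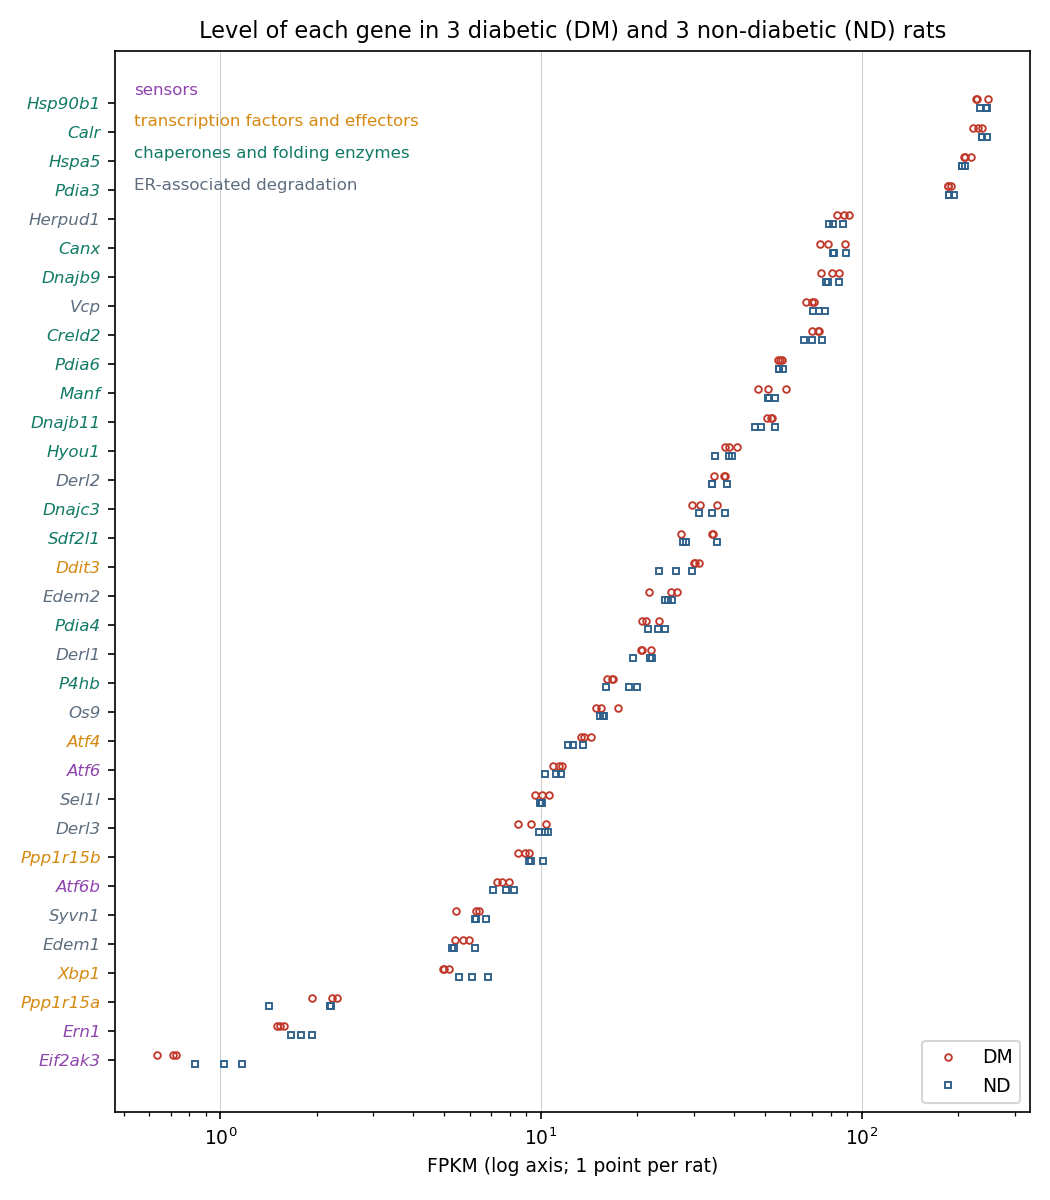
FPKM of 34 members (Trib3 left out) in each rat on a log axis, ordered by mean and coloured by role, with circles for DM and squares for ND. Hsp90b1, Calr, Hspa5 and Pdia3 are the highest and Eif2ak3 the lowest, and the DM and ND points of most genes lie on each other.

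Chaperones and folding enzymes made up most of the members' FPKM, with sums of 1382, 1380 and 1435 FPKM in DM and 1393, 1429 and 1423 FPKM in ND. Hsp90b1, the ER form of HSP90 also called GRP94, had the highest mean over the 6 rats, though Calr was above it in 4 of them, at 229, 227 and 248 FPKM in DM and 234.0, 244 and 246 FPKM in ND. Calr, the lectin chaperone calreticulin that also binds calcium (ENSRNOG00000003029), stood at 237.0, 230.1 and 223 FPKM in DM and 238.2, 247 and 238.1 FPKM in ND. Hspa5, the chaperone BiP that holds the sensors inactive in the absence of stress, stood at 209.5, 209 and 219.7 FPKM in DM and 205.0, 205.5 and 209.8 FPKM in ND. The groups overlapped for Hsp90b1 and Hspa5 and did not overlap for Calr, although DM1 and ND3 differed there by little and the separation was lost with median-ratio scaling.

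The differences between groups were small for these chaperones. Hspa5 had a log2 fold change of 0.040 with a 95% confidence interval of -0.075 to 0.16 (adjusted p = 0.919, limma with Benjamini-Hochberg adjustment). Hsp90b1 had -0.040, with an interval of -0.17 to 0.093. Calr had -0.067, with an interval of -0.19 to 0.051 (adjusted p = 0.843, limma with Benjamini-Hochberg adjustment), and a mean of 230.1 ± 6.99 FPKM in DM and 241 ± 4.98 FPKM in ND (SD, n = 3 each). Within rats, the ratio of Hsp90b1 to Hspa5 was 1.09, 1.09 and 1.13 in DM and 1.14, 1.19 and 1.17 in ND, so that it did not overlap between the groups, and it was 1 of 12 ratios computed. The difference of this ratio was not tested.

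The other chaperones and folding enzymes all overlapped between the groups. Pdia3, a disulfide isomerase that works with calreticulin on glycoproteins, was the fourth most abundant member, with means of 187 ± 2.41 FPKM in DM and 190 ± 4.05 FPKM in ND (SD, n = 3 each). Canx, the membrane-bound lectin calnexin, averaged 80.5 ± 7.64 FPKM in DM and 84.2 ± 4.41 FPKM in ND (SD, n = 3 each). The J-domain partners of BiP had mean levels over the 6 rats of 80.4 FPKM for Dnajb9, 50.6 FPKM for Dnajb11 and 33.2 FPKM for Dnajc3. Hyou1, a large chaperone that serves as a nucleotide exchange factor of BiP, averaged 38.3 FPKM, and Hspa5 was 5.10 to 5.89 times as high within a rat.

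The remaining disulfide isomerases were lower than Pdia3, at 55.7 FPKM for Pdia6, 22.4 FPKM for Pdia4 and 17.4 FPKM for P4hb. P4hb, also the beta subunit of prolyl 4-hydroxylase, had a log2 fold change of -0.14 with a 95% confidence interval of -0.36 to 0.080. It was -0.075 without ND2 and -0.23 without ND3 (unadjusted p = 0.0191, limma), and ND3 (15.99 FPKM) stood just below the DM rats (16.05 to 16.72 FPKM) while ND1 and ND2 were at 18.9 and 19.9 FPKM. Creld2 averaged 71.5 FPKM, Manf, a secreted ER stress protein, 52.1 FPKM and Sdf2l1, which works in complex with J-domain proteins, 31.2 FPKM. Sdf2l1 had a log2 fold change of 0.070, with an interval of -0.23 to 0.37, which ranged from 0.0067 (without ND3) to 0.18 (without ND2) when 1 rat was omitted. Of the 15 genes, 9 had a log2 fold change below 0 and 6 above, with a median of -0.0074, but with median-ratio scaling 6 were below and 9 above, with a median of 0.017. All 15 intervals lay within -0.5 to 0.5.

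Of the 10 genes of ER-associated degradation, 0 had an unadjusted p-value below 0.05 in limma and 0 had groups that did not overlap. Herpud1 was the highest, at 87.8, 91.1 and 83.6 FPKM in DM and 79.1, 87.3 and 81.2 FPKM in ND. Vcp, the ATPase that pulls proteins out of the membrane, stood at 71.3, 67.0 and 69.9 FPKM in DM and 73.8, 77.1 and 70.7 FPKM in ND. Derl2, a part of the channel through which they leave, stood at 34.7, 37.4 and 37.1 FPKM in DM and 34.2, 34.1 and 37.9 FPKM in ND. The groups overlapped for all 3, with log2 fold changes of 0.085 (95% confidence interval -0.062 to 0.23), -0.089 (-0.23 to 0.048) and 0.040 (-0.12 to 0.20).

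The 3 derlins kept a fixed order in the 6 rats, with Derl2 1.54 to 1.96 times as high as Derl1 and 3.31 to 4.38 times as high as Derl3. Derl3, which carries an ERSE, had a log2 fold change of -0.13 with a 95% confidence interval of -0.35 to 0.096, which was -0.057 without DM3 and -0.20 without DM2. Edem2, which trims mannose from glycoproteins that failed to fold, was 3.64 to 4.85 times as high as its paralog Edem1. Syvn1, the ubiquitin ligase HRD1, averaged 6.22 FPKM, and its adaptor Sel1l averaged 10.0 FPKM and was higher in each rat, by 1.48 to 1.95 times. Os9, a lectin of the same complex, averaged 15.7 FPKM. The sum of the 10 genes was 289, 288 and 281 FPKM in DM and 282, 294 and 281 FPKM in ND, and the median log2 fold change was 0.0016, with 5 genes on each side of 0 (4 below and 6 above with median-ratio scaling).

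**Figure D4:**
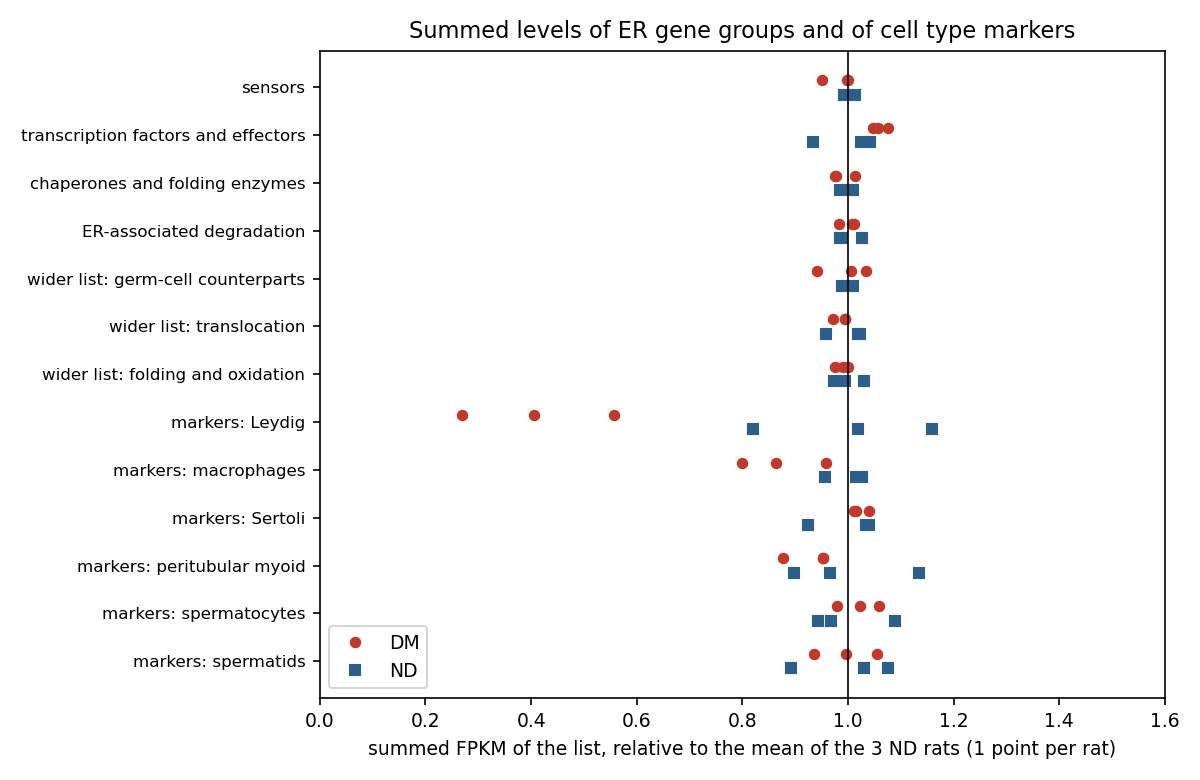
Summed FPKM of each list of genes in each rat, divided by the ND mean of that list, with circles for DM, squares for ND and an axis from 0. The role groups of the unfolded protein response lie close to 1 in all rats, whereas the Leydig cell markers of the DM rats lie below those of the ND rats.

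The levels of the members ran from 238 FPKM for Hsp90b1 through 236 for Calr, 210 for Hspa5, 189 for Pdia3 and 85.0 for Herpud1 to 5.59 for Xbp1, 2.05 for Ppp1r15a, 1.67 for Ern1, 0.850 for Eif2ak3 and 0.0558 for Trib3. Of the 34 pairs of neighbours in that order, 12 had ranges over the 6 rats that did not overlap and 22 had ranges that did. Separate neighbours were Calr and Hspa5, Hspa5 and Pdia3, and Pdia3 and Herpud1, while Hsp90b1 and Calr overlapped, with Hsp90b1 higher in 2 of the 6 rats. The 4 most abundant members stood above 98.2% to 98.7% of the genes tested.

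Members with an ERSE or ERSE-II in the promoter, 11 of the 28 with a promoter, had a median log2 fold change of -0.040, with 6 below 0 and 5 above. The 16 tested members whose promoter held neither had a median of -0.0088 and a range of -0.48 to 0.21. By element, the 8 members with the ERSE ranged from -0.28 (Xbp1) to 0.040 (Hspa5), and the 3 with ERSE-II from 0.053 (Hyou1) to 0.085 (Herpud1). These ranges overlapped without ND2. There Hyou1 (0.00086) and Dnajb11 (0.023) were below Hspa5 (0.036) and Creld2 (0.084), while Herpud1 was at 0.13. None of these differences was tested.

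A wider list of 78 ER genes (kinases and proteases of the sensors, stress targets, germ-cell counterparts of chaperones, folding and oxidation, translocation, degradation and the CREB3 family) was compared in the same way. Of these, 73 were found (not Bbc3, Pdia2, Mogs, Ufd1 and Marchf6), and 68 passed the filter. An unadjusted p-value below 0.05 from limma was given to 3 genes in the lower direction and 1 in the higher, against 4.99% and 2.47% of all genes, and 0 had an adjusted p-value below 0.05 (limma with Benjamini-Hochberg adjustment). The groups did not overlap for 7 genes in the lower and 3 in the higher direction, against 8.42% and 4.56%, and the median log2 fold change was -0.012.

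The wider genes with an unadjusted p-value below 0.05 were a disulfide isomerase, a pair of translocon subunits and a lipoprotein receptor. Txndc5, the isomerase, stood at 4.59, 4.09 and 4.63 FPKM in DM and 5.68, 6.05 and 5.08 FPKM in ND (log2 fold change -0.33, unadjusted p = 0.0207, adjusted p = 0.586, limma with Benjamini-Hochberg adjustment). Ssr3, a subunit of the translocon-associated protein complex, stood at 10.4, 10.9 and 13.2 FPKM in DM and 13.2, 13.3 and 14.3 FPKM in ND (log2 fold change -0.25, adjusted p = 0.666, limma). The groups did not overlap for Txndc5 or for Ssr3, although DM3 and ND1 of Ssr3 were both 13.2 FPKM when rounded.

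Ssr4, of the same complex, stood at 14.9, 11.7 and 10.7 FPKM in DM and 15.5, 16.6 and 14.7 FPKM in ND, with an overlap at DM1 (log2 fold change -0.34, adjusted p = 0.649, limma). Vldlr, a lipoprotein receptor gene that ATF4 can induce, stood at 20.0, 20.3 and 21.7 FPKM in DM and 19.0, 17.4 and 13.7 FPKM in ND (log2 fold change 0.32, adjusted p = 0.649, limma). The groups did not overlap for Vldlr, and ND3 was the lowest rat, without which the log2 fold change was 0.18. In fits that left out 1 rat, an unadjusted p-value below 0.05 in limma was lost for Txndc5 without DM2, ND1 or ND2 and was kept for Ssr3 only without DM3, for Ssr4 only without DM1 or ND3, and for Vldlr only without ND1. Ssr3 also lost it with TPM (0.0581), with median-ratio scaling (0.0677) and without the mean-variance trend (0.0759), and Ssr4 (0.0604) and Vldlr (0.0651) lost it without the trend.

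Germ cells express their own counterparts of the lectin chaperones and an isomerase-like protein, and these were abundant in both groups. Clgn, calmegin, stood at 306, 298 and 316 FPKM in DM and 303, 280 and 313 FPKM in ND, which was 3.45 to 4.13 times the level of Canx in the same rat. Calr3, calsperin, stood at 138, 138 and 153 FPKM in DM and 131, 152 and 146 FPKM in ND, lower than Calr, which was 1.46 to 1.82 times as high. Pdilt stood at 163, 132 and 155 FPKM in DM and 171, 164 and 149 FPKM in ND, with Pdia3 at 1.10 to 1.40 times its level. The groups overlapped for all 3, with log2 fold changes of 0.038, 0.00028 and -0.11.

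The cell types of the testis were checked with marker genes, since the members are expressed in many of them and the protocol text of the labels speaks of an adipose type. Spermatid markers were very high in all rats, with sums of 11230 to 12650 FPKM in DM and 10700 to 12900 FPKM in ND over 6 genes, and 0 of 6 had an unadjusted p-value below 0.05 in limma. Of 6 Leydig cell markers listed, 5 were matched (not Hsd3b1). All 5 were lower in DM at an unadjusted p-value below 0.05 in limma, against 4.99% of all genes tested. Their log2 fold changes were -1.62 to -0.999, and the sum was 40.3, 26.8 and 55.4 FPKM in DM and 101, 115 and 81.6 FPKM in ND. Cyp17a1, a steroidogenic enzyme of these cells, had an adjusted p-value of 0.0415 (limma with Benjamini-Hochberg adjustment). Without ND3, 0 genes, and so not Cyp17a1 either, had an adjusted p-value below 0.05 in limma. Of 6 macrophage markers, 3 (Cd68, Csf1r and C1qa) were lower at an unadjusted p-value below 0.05 in limma, with sums of 27.0 to 32.4 FPKM in DM and 32.3 to 34.7 FPKM in ND. No matched marker of either cell type was at 0 in any rat.

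At the same threshold, the counts were 0 of 6 for Sertoli cells, 2 of 6 for spermatogonia (Kit lower and Uchl1 higher), 0 of 6 for spermatocytes, 0 of 5 for peritubular myoid cells and 0 of 3 tested for endothelium. The sums of the Leydig cell markers, like the values of Xbp1, Eif2ak3, Ern1 and Calr, were lower in each DM rat than in each ND rat, and those of the macrophage markers overlapped. Their part in the values of these members was not tested.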

How the data were processed

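RNA-Seq of testis from 3 DM and 3 ND rats was used. According to the methods, FastQC served for quality control, BWA for the comparison with rRNA, STAR for alignment, StringTie for assembly and DESeq2 for the authors' own screen. The authors deposited FPKM per gene, and the authors' genome build is not given in the sources used here. Whether the counting used strand is not stated either, so reads of a gene and an overlapping antisense gene cannot be told apart. The small RNA libraries were not analysed here.

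The filter kept genes whose mean reached 0.5 FPKM, and log2(FPKM + 0.1) was fitted with limma 3.58.1 (lmFit, eBayes with a trend) in R 4.3.3, with Benjamini-Hochberg adjustment over all genes tested. The limma fit was tested on simulated data, and the other steps were not. Permutation tests used scipy 1.17.1 in Python 3.11.15. The members and lists were chosen with earlier results of these data known. Values in every rat were given for all sensors and effectors, the 3 most abundant chaperones and degradation genes, members with an unadjusted p-value below 0.05 or groups that did not overlap, wider ER genes with such a p-value and 3 germ-cell counterparts. Other genes named, such as the ratios and P4hb, were chosen after their values were seen.

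Other settings tried were pseudocounts of 1 and 0.01, a filter at 1 FPKM or none, scaling to TPM or by median ratios, robust eBayes, eBayes without the trend, a block for the replicate number, sums over genes of 1 symbol, fits that left out 1 rat, and protein-coding genes only (RefSeq GRCr8, whose symbols matched 17294 genes). No 2 samples were identical, and depth could be read only relatively, so precision rests on the spread between 3 rats. Rats with the same replicate number are different animals.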

Additional observations from a re-analysis of the deposited data

How the results depend on the processing

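Across 17 alternatives, the number of members past the criterion (0) and with an adjusted p-value below 0.05 (0) was unchanged. The number with an unadjusted p-value below 0.05 in limma was 1 and became 2 with median-ratio scaling (Ddit3 added), 2 with eBayes without the trend (Eif2ak3 added), and 3 among protein-coding genes only (both added). Leaving out each rat gave 0 to 3, with 3 without ND3 (Ddit3, P4hb and Xbp1) and 0 without any other rat. Members whose groups did not overlap numbered 5, and 6 to 11 without a rat, since a comparison of fewer rats overlaps less often. With all rats kept, they numbered 7 with TPM (Atf4 and Vcp added) and 4 with the filter at 1 FPKM, which Eif2ak3 did not pass. Median-ratio scaling left 5, with Atf4 in place of Calr. The wider ER genes with an unadjusted p-value below 0.05 in limma numbered 4. They numbered 6 without the filter, 5 among protein-coding genes only, 2 without the trend, and 0 to 4 without a rat. The median log2 fold change of the members was 0.018 with median-ratio scaling, and -0.023 to 0.0048 without a rat. Median-ratio scaling moved the median of all genes from -0.021 to 0.0026. It also turned the sign of Atf6b (0.0078), Pdia3 (0.0057), Pdia6 (0.017), Dnajb9 (0.022) and Derl1 (0.020), and TPM turned that of Calr3 (-0.00065). The counts of members below and above 0 (19 and 15) became 14 and 20 with median-ratio scaling.

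Without a rat, the log2 fold changes that crossed 0 were those of Atf6 (-0.0051 to 0.075), Atf6b (-0.072 to 0.034), Ppp1r15a (-0.035 to 0.27), Pdia6 (-0.018 to 0.0065), Dnajb9 (-0.045 to 0.048), Creld2 (-0.0063 to 0.084), Manf (-0.076 to 0.067), Sel1l (-0.028 to 0.042), Derl1 (-0.065 to 0.031), Edem1 (-0.023 to 0.094), Edem2 (-0.089 to 0.054), Os9 (-0.045 to 0.071), Clgn (-0.0079 to 0.074) and Calr3 (-0.062 to 0.045). Over all 20338 genes tested, 253 passed the criterion, against 91 with a pseudocount of 1, 621 of 30782 without the filter and 85 of 12242 protein-coding genes. An adjusted p-value below 0.05 was found for 7 genes, which became 3 without the filter, 12 without the trend, 36 among protein-coding genes, 15 with symbols summed and 0 to 11 without a rat, with 0 without ND3. Of the 20338 genes, 2640 had groups that did not overlap. This became 1723 of 12242 protein-coding genes and 4227 to 5237 of 20338 genes without a rat. The number of genes tested differed between some of these settings, so such counts do not share a base. The cause of the changes was not tested. The labels number the rats 1 to 3 in both groups, but the rats are different animals. Deviations from the group means correlated at 0.11, 0.015 and 0.098 between same-numbered rats. Between DM and ND rats of different numbers the correlations ran from -0.13 to 0.032. Whether rats of the same number shared a batch was not tested. With the replicate block 4 genes had an adjusted p-value below 0.05, and Xbp1 had an unadjusted p-value of 0.0418 in limma. With 3 rats a group and depth unknown, changes as small as those of most members could not be told from the spread.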
